A study of Mus musculus with 6 samples.

Results

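The genes of the nuclear pore and of the carriers that cross it were followed in leukaemic granulocyte-macrophage progenitors (L-GMP) of AMPK wild-type and knockout mice; AMPK is the AMP-activated kinase by which a cell senses low energy. Members were taken by a rule on symbols: every row whose symbol starts with Nup and a digit, Xpo, Ipo, Kpn or Tnpo. It left out 1 row whose symbol contains -ps, and was chosen with earlier results of these data known. The rule took 44 of the 47643 genes of the table, 20 nucleoporins of the Nup series, 6 importin alpha genes, 11 genes of the importin beta family, 6 exportins and Nup62cl, a relative of Nup62. The libraries came from C57BL/6 mice, 3 from wild-type (WT) L-GMP and 3 from L-GMP labelled as knockout (KO) for both Prkaa1 and Prkaa2, the genes of the AMPK catalytic subunits. Cells were sorted, and cDNA was made with Smart-seq2, a method for small RNA inputs. What drives the leukaemia, how the genes were deleted and how many mice of which age were used is not stated in the labels. Nothing says that the 3 libraries of a genotype came from separate animals, so a p-value here reflects spread among libraries that could be technical.

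The nuclear pore is a ring-shaped channel through both membranes of the nuclear envelope. Its Y-shaped complexes form the outer rings, an inner ring holds the channel, and nucleoporins rich in phenylalanine-glycine repeats fill the channel and bar large molecules that travel without a carrier. Importins bind cargo in the cytoplasm and let go when the small GTPase RAN, loaded with GTP in the nucleus, binds them; exportins need RAN-GTP to hold their cargo and release it when GTP is hydrolysed outside. Importin alpha proteins are adaptors that recognise classical nuclear localisation signals and ride on importin beta (Kpnb1), while most other importins bind cargo directly. In myeloid leukaemia NUP98 and NUP214 are known as partners in oncogenic gene fusions, and the exportin XPO1 is a drug target.

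Values are FPKM, read numbers that the authors divided by gene length and by a factor for each library. How that factor was set is not stated. A log2 difference is KO minus WT on log2(FPKM + 1), with its standard error (SE). A gene was called at an adjusted p under 0.05 in limma, adjusted over all 9108 genes whose mean over the libraries reached 1 FPKM. Recovered whole reads numbered 11390343 to 16415932 in WT and 12372343 to 14025385 in KO. WT replicate 1 had 11390343 and KO replicate 1 had 13872750. Yet 1 read stood for nearly the same value in both (78.7 and 78.2 FPKM times bases). The factor for each library is therefore not the number of recovered reads alone. Prkaa1 was at 2.01, 2.20 and 1.80 FPKM in WT and 1.11, 0.735 and 0.548 in KO, which was called lower (adjusted p = 0.00112 in limma), and Prkaa2 had 2 reads over the WT libraries and 4 over the KO libraries, so that gene checks nothing. The FPKM sums differ by genotype, 463683 to 475654 in WT and 649611 to 653819 in KO. Rescaling the libraries to equal sums moves the median log2 difference of all tested genes from -0.02 to -0.41 and the share of calls that are higher from 48.5% to 27.8%, so the 6 members called higher are given under both scalings.

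Of 10 genes that mark granulocyte-macrophage progenitors, 7 were tested, with 4 called higher and 3 lower in KO. Elane was at 1758 FPKM in WT and 7923 in KO, Prtn3 at 472 and 2056, Mpo at 159 and 442, and Ctsg was called higher as deposited and lower when rescaled. Cd34 was at 27.8 FPKM in WT and 3.51 in KO, Fcgr2b at 14.9 and 4.19 and Fcgr3 at 129 and 66.8. Kit, which marks such progenitors, was low, at 0.250 FPKM in WT and 1.43 in KO, Flt3 was at 1.48 in WT and 0 in KO, and Csf1r was near 0. Sums over marker lists of other cells differed widely between the genotypes. The 8 neutrophil maturation genes summed to 317 to 332 FPKM in WT and 71421 to 72815 in KO, with 7 of the 7 tested called higher as deposited and 6 when rescaled, where Camp is not called. The basophil, mast cell and eosinophil list summed to 29.8 to 36.2 FPKM in WT and 549 to 579 in KO, and the erythroid list to 12.3 to 15.1 in WT and 78.4 to 82.6 in KO. The B cell list summed to 51.5 to 56.8 FPKM in WT and 1.90 to 3.23 in KO. That sum rests mostly on 1 gene. Only 1 of the 5 listed had a WT mean of 1 FPKM or more and was tested, and it was called lower. Another 2, Pax5 among them, were at 0 in every library. Of the T cell list, at most 0.663 FPKM in any library, Cd3e, Cd8a and Trac were at 0. The 6 cycling genes summed to 322 to 337 FPKM in WT and 310.2 to 324 in KO, ranges that overlap, but 3 were called higher (Top2a, Mki67 and Pcna) and 2 lower (Mcm2 and Ccnb1), and when rescaled 1 higher and 4 lower. The lists of neutrophil, basophil, erythroid and B cells differ between the same libraries as every group of genes below, and their part in the results was not tested. In sorted bulk cells, fewer cells of a type and less RNA per cell cannot be told apart.

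Most transport genes that could be tested were lower in KO. Of the 44 members 34 reached the minimum mean and were tested; 21 were called lower, 6 were called higher and 7 were not called. Over all tested genes 40.4% were called lower and 38.0% higher, 78.4% in either direction, so a call by itself is common here. The 6 called higher were Kpna2, Kpna3, Kpna6, Nup205, Nup210 and Xpo6, and none of them is called higher once the libraries are rescaled to equal sums, where 27 members are lower and 0 higher against a background of 59.1% lower and 22.8% higher (81.9% either way). The median log2 difference of the tested members was -0.31, beside -0.02 for all tested genes. The 3 WT and 3 KO values did not overlap in 28 of the 34 members, 21 below and 7 above, beside 80.6% of all tested genes (41.6% below and 39.1% above). A fall of at least 2-fold in mean FPKM was called for 8 members, Ipo4, Nup37, Xpo5, Xpot, Ipo7, Ipo5, Nup54 and Nup133, and a rise of that size for none, beside 17.6% and 17.2% of all tested genes. Ipo4 and Xpot passed the minimum mean through their WT libraries alone. With no minimum mean, over 21132 genes of which 27.3% are called lower and 22.1% higher (49.4% either way; 55.6% have no overlap), 25 members are called lower and 5 higher, those added being Xpo4, Ipo8, Ipo11 and Nup210l, all lower, while Nup205 is lost (adjusted p = 0.0940 in limma).

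**Figure D1:**
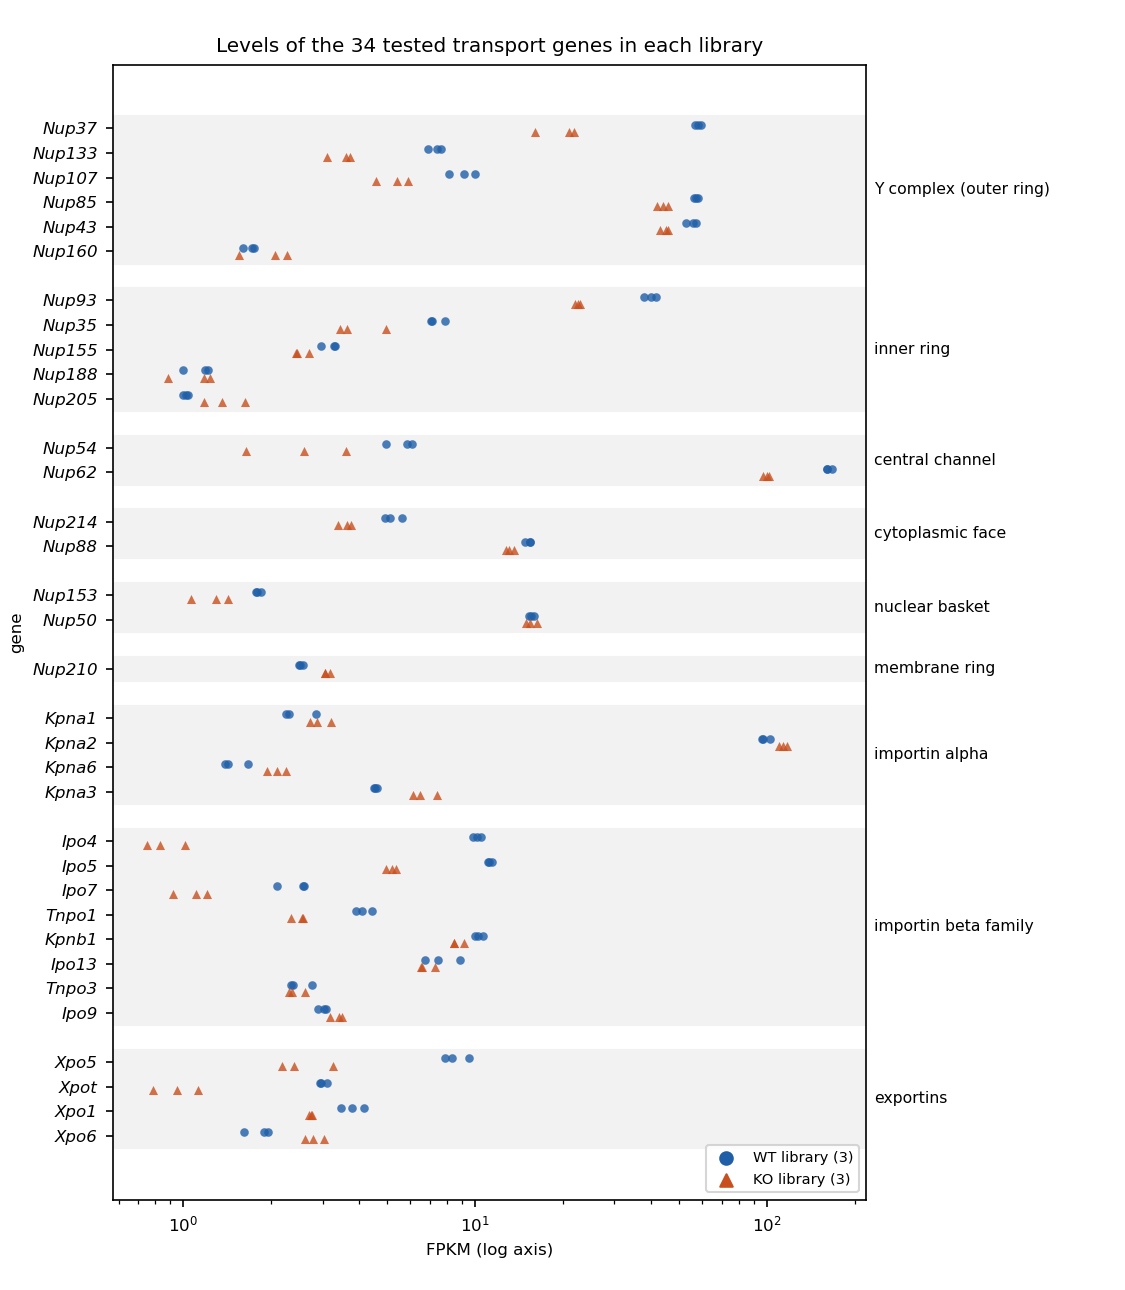
FPKM of the 34 tested genes in each library on a log axis, by role, with WT libraries as circles and KO libraries as triangles. Nup62 and Kpna2 are the most abundant; the Ipo4 triangles lie between 0.750 and 1.014 FPKM and its circles between 9.83 and 10.4, and the Kpna2, Kpna3 and Kpna6 triangles lie above theirs.

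**Figure D2:**
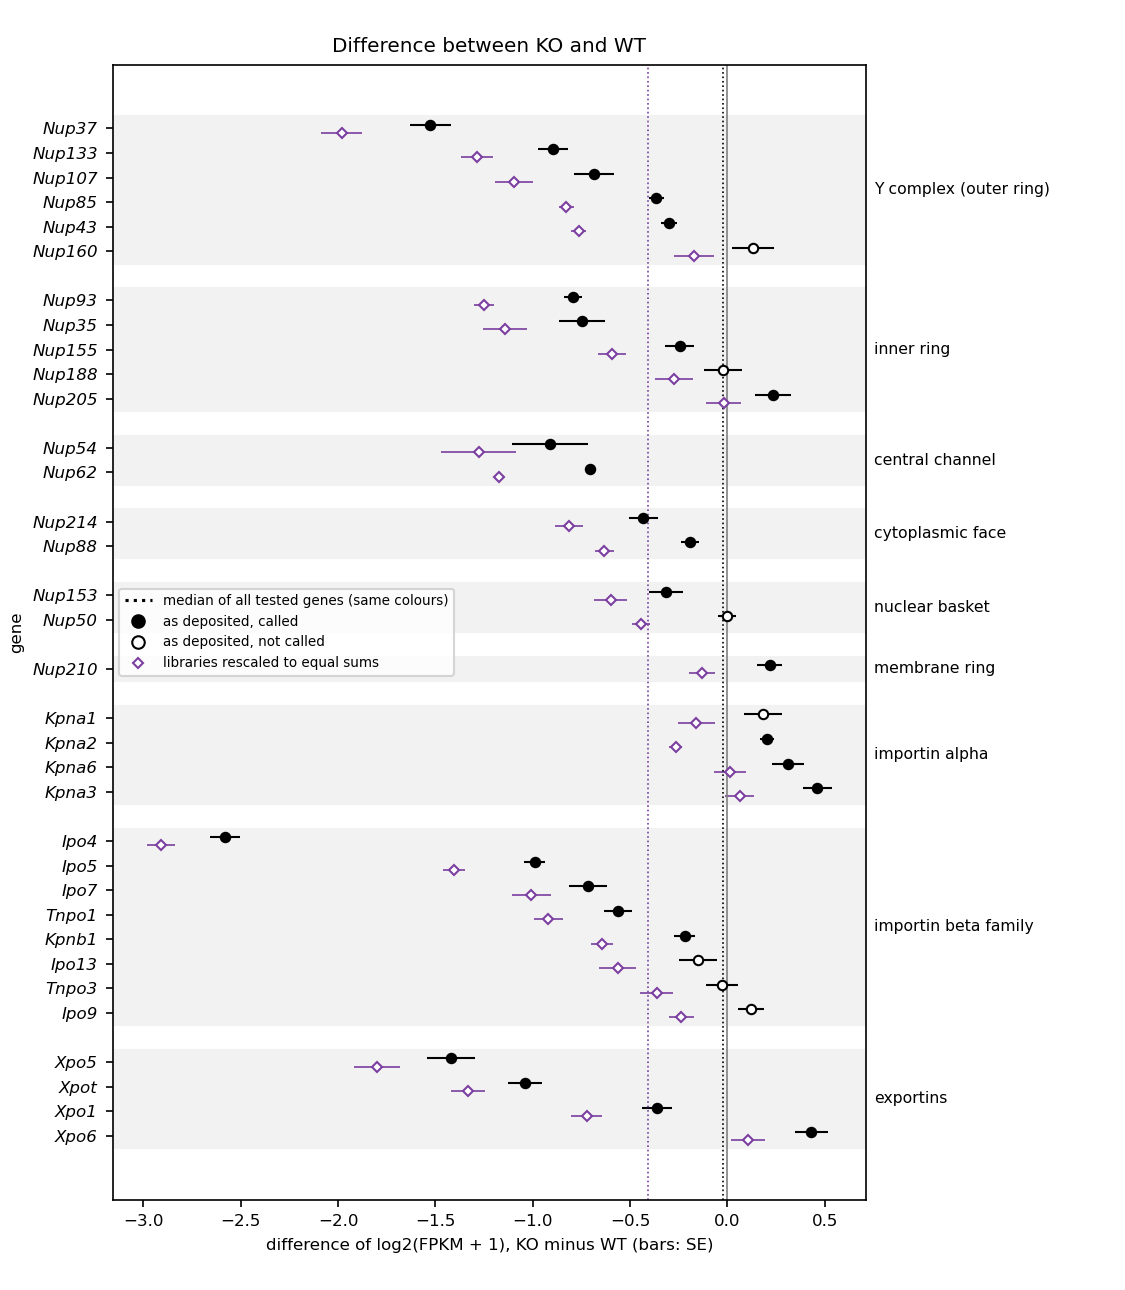
Log2 difference, KO minus WT, with its SE for each tested gene, as deposited (circles, filled where called) and with libraries rescaled to equal sums (diamonds); dotted lines mark the median of all tested genes under each scaling. Ipo4, Nup37 and Xpo5 lie farthest left under both, and the 6 called rises move to or below 0.11 when rescaled.

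The outer ring was lower, with 5 of the 6 Y complex genes of the Nup series called lower and a median log2 difference of -0.53. Counts by role, here and below, are to be read beside the 40.4% called lower and 38.0% called higher over all tested genes. When rescaled these shares are 59.1% and 22.8%. Nup37, a small subunit of the complex found in animals, was at 59.4, 56.8 and 57.9 FPKM in WT and 16.1, 21.8 and 21.1 in KO. All 3 KO libraries lay far below the WT libraries, 2.95-fold lower in the mean (log2 difference -1.53, SE 0.11, adjusted p = 7.31e-06 in limma). Nup133, at the far end of the Y stem, was at 7.63, 7.43 and 6.90 FPKM in WT and 3.10, 3.73 and 3.61 in KO, 2.10-fold lower without overlap (adjusted p = 2.81e-05 in limma). Nup107, the partner of Nup133 in the stem, fell from 9.09 to 5.28 FPKM in the mean. Nup85 fell from 57.0 to 44.0 and Nup43, another small subunit, from 55.3 to 44.7. Nup160, an arm of the Y, averaged 1.69 FPKM in WT and 1.96 in KO and was not called (log2 difference 0.13, and -0.17 when rescaled; adjusted p = 0.290 in limma, 0.0437 without KO replicate 3). Among these 6 genes alone, without members of the complex under other names such as Seh1l and Sec13, Nup37 made up 30.8% ± 1.14 (SD, n = 3) of the summed FPKM in WT and 16.4% ± 1.70 in KO, and Nup43 29.3% ± 0.743 and 37.6% ± 1.04. The shares of this complex were not planned in advance. The larger share of Nup43 is relative to the other genes, as its own FPKM fell. A share within a library does not move with the scaling of that library, and with 3 libraries against 3 an exact permutation test cannot go below 0.1.

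The inner ring was mixed, with 3 of its 5 genes called lower and 1 called higher as deposited, and 4 lower and 0 higher when rescaled. Nup93, which links the scaffold of the inner ring to the channel, was at 41.6, 39.9 and 37.8 FPKM in WT and 22.5, 21.9 and 23.0 in KO. The KO libraries agree closely and lie below every WT library (log2 difference -0.79, SE 0.04, adjusted p = 2.48e-06 in limma). Nup35, which touches the membrane, fell from 7.35 to 4.01 FPKM. Nup155 fell from 3.18 to 2.53 (adjusted p = 0.0175 in limma, but 0.0607 without WT replicate 2 and 0.0551 without WT replicate 3). Nup188, a large scaffold protein, was level at 1.13 and 1.10 FPKM and was not called as deposited. When rescaled it was called lower (log2 difference -0.27, adjusted p = 0.0342 in limma). Its relative Nup205 was at 1.04, 0.998 and 1.02 FPKM in WT and 1.176, 1.62 and 1.35 in KO, all KO values above all WT values. It was called higher by a narrow margin (log2 difference 0.24, SE 0.09, adjusted p = 0.0495 in limma), a call lost when any library but KO replicate 1 is left out (adjusted p 0.0843 to 0.127) and a difference of -0.02 when rescaled.

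The genes that line the channel and its cytoplasmic face were lower, 2 of 2 tested in each. In the nuclear basket 1 of 2 was lower, beside 40.4% of all tested genes, and 2 of 2 when rescaled, beside 59.1%. Nup62, the central channel protein and the most abundant of the Nup genes here, was at 160.4, 160.7 and 167 FPKM in WT and 100.002, 101 and 96.9 in KO. The groups lie wide apart against their spread (log2 difference -0.70, SE 0.03, adjusted p = 4.59e-07 in limma). Nup54, its partner, was at 6.10, 5.83 and 4.94 FPKM in WT and 2.58, 1.63 and 3.60 in KO. It was 2.16-fold lower with a wider spread among the KO libraries (log2 difference -0.91, SE 0.20, adjusted p = 0.00364 in limma). Nup98, a mobile repeat protein, was below the minimum mean, at 0.699, 0.641 and 0.630 FPKM in WT and 1.56, 1.45 and 0.782 in KO; the KO libraries were higher but uneven (adjusted p = 0.0618 in limma with no minimum mean). On the cytoplasmic face, Nup214 was at 4.90, 5.62 and 5.10 FPKM in WT and 3.76, 3.39 and 3.65 in KO (log2 difference -0.43, adjusted p = 0.00112 in limma). Nup88, which anchors Nup214, fell from 15.2 to 13.2 FPKM. On the nuclear side Nup153, the basket protein, was at 1.78, 1.85 and 1.78 FPKM in WT and 1.06, 1.29 and 1.42 in KO (adjusted p = 0.0121 in limma). Nup50, which helps release cargo there, averaged 15.6 FPKM in both and was not called as deposited. When rescaled it was called lower (log2 difference -0.44, adjusted p = 8.07e-05 in limma).

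Nup210, a membrane protein of the pore, was the other pore gene called higher. It was at 2.49, 2.57 and 2.51 FPKM in WT and 3.19, 3.05 and 3.05 in KO (log2 difference 0.22, SE 0.06, adjusted p = 0.0175 in limma), but the difference is -0.13 when rescaled and the call is lost without KO replicate 1 (adjusted p = 0.0501). Its relative Nup210l had 37 reads over the WT libraries and none over the KO libraries, at least 10.2-fold lower against a floor of 3 reads over the group (adjusted p = 0.00181 in limma with no minimum mean). Nup62cl was at 0 in all 6 libraries.

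The importin alpha adaptors were higher as deposited, 3 of 4 tested called higher and 0 lower. They were not when the libraries are rescaled to equal sums, where the median log2 difference goes from 0.26 to -0.07 and Kpna2 is called lower. Under quantile normalization and cyclic loess Kpna2 (0.17 and 0.27), Kpna3 (0.50 and 0.49) and Kpna6 (0.30 and 0.29) stayed called higher. Which scaling is right was not tested. Kpna2, the adaptor that makes up 91.5% of the importin alpha FPKM in WT, was at 96.4, 97.2 and 103 FPKM in WT and 117, 110.3 and 114 in KO. The KO libraries were all above the WT libraries (log2 difference 0.20, SE 0.04, adjusted p = 0.00142 in limma), whereas rescaled they were lower (log2 difference -0.26, adjusted p = 0.000185 in limma). Kpna3 was at 4.61, 4.54 and 4.51 FPKM in WT and 6.13, 7.39 and 6.45 in KO (log2 difference 0.46, SE 0.08, adjusted p = 0.000899 in limma; 0.06 and not called when rescaled). Kpna6 was at 1.39, 1.42 and 1.66 FPKM in WT and 2.09, 1.94 and 2.24 in KO (log2 difference 0.31, adjusted p = 0.0105 in limma; 0.01 and not called when rescaled). Kpna1 averaged 2.47 FPKM in WT and 2.94 in KO and was not called (log2 difference 0.18, and -0.16 when rescaled; adjusted p = 0.118 in limma, 0.0427 without WT replicate 2). Kpna4 was below the minimum, at 0.604 and 0.556 FPKM, and Kpna7 had 1 read in 1 WT library.

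Against Kpnb1, their shared partner, the adaptors taken as a sum were higher under any scaling of the libraries. That sum is mostly Kpna2, 91.5% of it in WT and 90.3% in KO, and says little about the other adaptors. The summed importin alpha FPKM was 10.5 ± 0.635 times that of Kpnb1 in WT and 14.5 ± 0.732 times in KO (SD, n = 3), without overlap; this ratio was chosen after the values were seen.

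The importin beta family fell: 5 of its 8 tested genes were called lower and 0 higher, and rescaled all 8 were lower. Its summed FPKM went from 54.6 ± 0.728 in WT to 32.6 ± 0.0772 in KO (SD, n = 3). The largest log2 difference among the 34 tested members was in Ipo4, an importer of histones and ribosomal proteins, at 9.83, 10.2 and 10.4 FPKM in WT and 0.831, 1.014 and 0.750 in KO. No KO library came near the WT libraries, an 11.7-fold lower mean (log2 difference -2.58, SE 0.08, adjusted p = 1.03e-07 in limma) resting on 2444 reads over WT and 171 over KO. Ipo4 lies at chr14:55625400-55635957 on the minus strand of mm10, and 55.3% of its exonic bases also belong to the readthrough gene Gm49378 on the same strand, so its level is uncertain. Nup188 (12.4%), Tnpo2 (11.7%) and Nup133 (10.4%) are the members with the next largest overlap with other genes, uncertain to that extent.

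Ipo5, which also imports ribosomal proteins, was at 11.4, 11.2 and 11.1 FPKM in WT and 5.35, 5.18 and 4.95 in KO, 2.18-fold lower (log2 difference -0.99, SE 0.05, adjusted p = 1.97e-06 in limma). Ipo7, which carries linker histone together with Kpnb1, was at 2.56, 2.58 and 2.09 FPKM in WT and 1.11, 1.21 and 0.920 in KO, 2.24-fold lower (adjusted p = 0.000322 in limma). Neither gene's groups overlap. Ipo8, the close relative of Ipo7, did not reach the minimum mean, at 1.09 FPKM in WT and 0.408 in KO, with 780 reads over WT and 239 over KO (adjusted p = 0.000824 in limma with no minimum mean). Tnpo1, the importer of many RNA-binding proteins, fell from 4.15 to 2.49 FPKM, and its paralogue Tnpo2 was at 0.928 and 0.607 FPKM (adjusted p = 0.131 in limma with no minimum mean). Kpnb1 itself fell by less, from 10.3 to 8.70 FPKM (adjusted p = 0.00791 in limma). Ipo11 was at 1.21 and 0.745 FPKM (adjusted p = 0.0306 in limma with no minimum mean).

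Of the family, 3 tested genes were not called as deposited. Ipo13, which carries cargo in both directions, averaged 7.69 FPKM in WT and 6.80 in KO, and Tnpo3, the importer of splicing factors rich in serine and arginine, 2.49 and 2.42. Ipo9, an importer of core histones, averaged 3.004 and 3.36 FPKM (adjusted p = 0.135 in limma; log2 difference 0.12, and -0.24 when rescaled).

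The makeup of the family therefore differed between the genotypes, as the plot of family shares shows. Ipo4 went from 18.6% ± 0.387 of the family FPKM in WT to 2.65% ± 0.422 in KO and Ipo5 from 20.6% ± 0.592 to 15.8% ± 0.614 (SD, n = 3). Kpnb1 went from 18.8% ± 0.611 to 26.7% ± 1.16, Ipo13 from 14.1% ± 1.90 to 20.8% ± 1.34 and Ipo9 from 5.50% ± 0.0883 to 10.3% ± 0.512. None of these groups overlap. Tnpo1 held 7.59% in WT and 7.62% in KO.

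**Figure D3:**
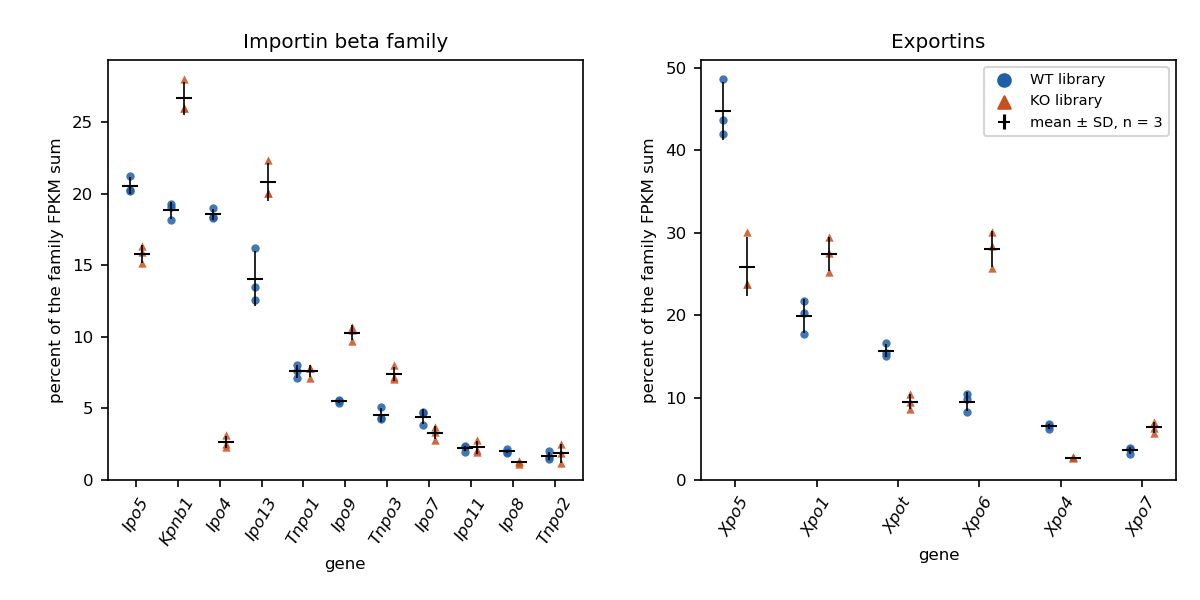
Share of each gene in the summed FPKM of its family in each library, with the mean and SD of 3 libraries: importin beta family on the left, exportins on the right. Ipo4 drops from 18.6% to 2.65%, Xpo5 from 44.8% to 25.9%, and Xpo6 goes from 9.51% to 28.1%.

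The exportins for small RNAs were lower, and the actin exportin was higher as deposited but not called when rescaled; 3 of the 4 tested were lower. Xpo5, which exports microRNA precursors, was at 7.87, 8.36 and 9.54 FPKM in WT and 3.25, 2.18 and 2.40 in KO. It was 3.30-fold lower without overlap (log2 difference -1.42, SE 0.12, adjusted p = 2.74e-05 in limma). Xpot, the exportin of transfer RNA, was at 3.11, 2.95 and 2.96 FPKM in WT and 1.12, 0.790 and 0.955 in KO, 3.15-fold lower (log2 difference -1.04, SE 0.09, adjusted p = 2.23e-05 in limma). Xpo1, the exportin for leucine-rich export signals, was at 3.79, 4.17 and 3.48 FPKM in WT and 2.73, 2.70 and 2.77 in KO, a smaller fall (log2 difference -0.36, SE 0.08, adjusted p = 0.00334 in limma). Xpo6, which carries actin with profilin out of the nucleus, was at 1.95, 1.89 and 1.62 FPKM in WT and 2.78, 2.60 and 3.02 in KO, the only exportin called higher (log2 difference 0.43, SE 0.08, adjusted p = 0.00232 in limma; 0.11 and not called when rescaled).

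Below the minimum mean, Xpo4, the exportin of the translation factor eIF5A, was at 1.28, 1.179 and 1.29 FPKM in WT and 0.301, 0.241 and 0.277 in KO. It had 405 reads over WT and 74 over KO and was 4.57-fold lower (adjusted p = 0.000143 in limma with no minimum mean). Xpo7 was at 0.691 and 0.636 FPKM. The family's summed FPKM was 19.2 ± 0.431 in WT and 10.01 ± 0.823 in KO (SD, n = 3). Xpo5 went from 44.8% ± 3.47 to 25.9% ± 3.61 of that sum, Xpo1 from 19.9% ± 2.04 to 27.4% ± 2.09 and Xpo6 from 9.51% ± 1.13 to 28.1% ± 2.18, none with overlap. The ratio of Xpo6 to Xpo1, chosen after the values were seen, was 0.478 ± 0.0328 in WT and 1.03 ± 0.0649 in KO (SD, n = 3).

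The tested members nearest the minimum were Nup188 and Nup205, and the untested ones nearest it Ipo11, at a mean of 0.975 FPKM, and Nup98, at 0.961.

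Promoter sequences were at hand for 35 of the 44 members, 42 windows in all, each from 250 bases before to 50 after the start that RefSeq gives on GRCm38.p6. The E-box CACGTG, the same on both strands and the letters that MYC and its relatives bind, was in 7 of the 42 windows (16.7%) and in 7.15% of all 32851 promoters of that length. Of the genes that hold it Ipo4, Ipo7, Nup54, Nup93 and Xpot were called lower, Nup188 was not called and Tnpo2 was not tested. These calls stand beside 21 of the 34 tested members and 40.4% of all tested genes called lower. A link between the E-box and the calls was not tested. The palindrome of nuclear respiratory factor NRF1, the same on both strands, was in 4 windows (9.52%; Nup107, Nup50, Nup62 and Xpo5) and 0.971% of all. CCAAT, searched on both strands, was in 23 windows (54.8%) and 37.4% of all, and the ETS letters CCGGAAGT in 4 (9.52%; Ipo4, Nup155, Nup54 and Tnpo3) and 3.89%. The NRF1 genes and the ETS genes each had 3 called lower, 0 higher and 1 not called. Of 20 genes with CCAAT 10 were called lower, 2 higher and 2 not called, and 6 were not tested. These counts stand beside 40.4% called lower and 38.0% called higher over all tested genes, and a link was not tested. A match describes letters in a window and is neither a site nor a cause.

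The bases from 250 to 51 before the start are printed for 4 of the genes called lower that hold the E-box, with it in capitals. Printing was limited to called genes. Nup188 (66 and 24 bases before the start) and Tnpo2 (155 and 116) also hold it upstream and are not printed. Ipo7 is the plus-strand window chr7:110018065-110018264, with the E-box starting 137 bases before the start. Nup54 is the minus-strand window chr5:92435250-92435449, with it 100 bases before. Nup93 is the plus-strand window chr8:94214314-94214513, with it 175 bases before. Xpot is the minus-strand window chr10:121626383-121626582, with it 231 bases before. All are read 5′ to 3′ along the gene.
Ipo7: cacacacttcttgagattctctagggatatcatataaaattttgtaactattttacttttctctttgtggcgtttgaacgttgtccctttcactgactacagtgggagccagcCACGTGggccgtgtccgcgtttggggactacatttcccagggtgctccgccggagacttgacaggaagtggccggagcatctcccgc
Nup54: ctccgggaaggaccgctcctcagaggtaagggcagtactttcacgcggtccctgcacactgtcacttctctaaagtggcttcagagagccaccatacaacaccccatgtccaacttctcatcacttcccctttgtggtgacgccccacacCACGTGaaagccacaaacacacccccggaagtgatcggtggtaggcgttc
Nup93: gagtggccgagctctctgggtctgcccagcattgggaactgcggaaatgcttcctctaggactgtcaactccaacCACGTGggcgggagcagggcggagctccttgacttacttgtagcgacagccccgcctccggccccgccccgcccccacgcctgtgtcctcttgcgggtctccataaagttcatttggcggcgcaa
Xpot: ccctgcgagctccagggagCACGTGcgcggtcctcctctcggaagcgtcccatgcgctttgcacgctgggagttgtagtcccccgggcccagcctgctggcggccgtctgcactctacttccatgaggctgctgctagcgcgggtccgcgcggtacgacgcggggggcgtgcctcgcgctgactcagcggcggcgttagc

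Genes of the same pathway under other names were counted in 5 lists, to be read beside the 40.4% called lower and 38.0% called higher over all tested genes (59.1% and 22.8% when rescaled). The lists were chosen with earlier results of these data known, so their counts only describe. Of 14 genes listed as other pore genes 10 were called lower and 0 higher (median log2 difference -0.45), and 14 lower when rescaled. The list holds Tor1aip1, an envelope protein whose relative Tor1aip2 is in the envelope list. Tor1aip1 was called lower, at 7.61 FPKM in WT and 5.19 in KO. Sec13 was called lower by a small difference, at 190 and 179 FPKM (adjusted p = 0.0260 in limma). That call is lost under cyclic loess (0.123) and with a replicate block (0.0510). Nupl2, a repeat protein of the cytoplasmic face, fell from 7.31 to 2.78 FPKM and Seh1l, a member of the Y complex, from 27.3 to 14.96. Ranbp2, the large protein of the cytoplasmic filaments, was at 1.79 and 1.45 FPKM and was not called (adjusted p = 0.0620 in limma). The RAN cycle list was called lower for 6 of 7 tested genes and higher for 1, and lower for 7 when rescaled. One of the 6, Nutf2, was at 48.9 FPKM in WT and 42.3 in KO with overlapping groups. Its call (adjusted p = 0.0394 in limma) is lost under quantile normalization (0.305), cyclic loess (0.189) and no minimum mean (0.0813). Ran itself was at 501, 510.1 and 509.8 FPKM in WT and 265, 265 and 272 in KO, with little spread (log2 difference -0.92, adjusted p = 2.35e-08 in limma). Rcc1, which loads RAN with GTP, fell from 30.7 to 19.9 FPKM. Rcc2, listed here by its name and not known to load RAN, fell from 31.6 to 14.3. Ranbp1, whose exons overlap another gene over 20.1% of their bases, fell from 838 to 407. Rangap1, which makes RAN hydrolyse GTP, was called higher as deposited at 55.3 and 61.6 FPKM and lower when rescaled (log2 difference 0.15 and -0.31).

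Of 6 other carriers tested 3 were called lower and 2 higher, near the shares over all genes, and 4 lower and 1 higher when rescaled. Cse1l, which returns importin alpha to the cytoplasm, fell from 9.54 to 6.08 FPKM, and Nmd3, the export adaptor of the large ribosomal subunit, from 14.7 to 5.49; Heatr3 fell from 7.40 to 4.51. Snupn, the importer of spliceosomal small nuclear RNA particles, rose from 25.3 to 59.5 FPKM under both scalings, and Phax, the adaptor for export of their RNA, was at 28.8 and 34.6 (log2 difference 0.26, and -0.20 when rescaled).

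Of the messenger RNA export factors 12 of 21 tested were called lower and 4 higher, and 18 lower and 2 higher when rescaled. Among the 12, Ddx39b was at 53.6 FPKM in WT and 49.8 in KO with overlapping groups. Its call (adjusted p = 0.0460 in limma) is lost under quantile normalization (0.987), cyclic loess (0.735), no minimum mean (0.0670) and a replicate block (0.0953). Thoc2 (adjusted p = 0.0345 in limma) loses its call with no minimum mean (0.0725) and with a replicate block (0.0568). Mcm3ap, the scaffold of an export complex at the pore, fell from 18.3 to 1.95 FPKM, 9.40-fold. Nxt2, a cofactor of the export receptor, had 408 reads over WT and none over KO, at least 112-fold lower against a floor of 3 reads over the group, and passed the minimum mean through WT alone. Poldip3 rose from 6.45 to 11.4 FPKM and Eny2 from 38.4 to 59.7 under both scalings. Nxf1, the main export receptor, was at 53.3 and 57.7 FPKM, called higher as deposited and lower when rescaled (log2 difference 0.11 and -0.35). Envelope and lamina genes, among which Tor1aip1 is not counted, went the other way as deposited. Of 11 tested 7 were called higher and 2 lower (median log2 difference 0.31). When rescaled 3 were higher and 4 lower (median -0.05). Sun2, which ties the envelope to the cytoskeleton, was at 5.76, 6.55 and 6.41 FPKM in WT and 29.4, 31.1 and 32.7 in KO, 4.98-fold higher, and Tmpo, a lamina-associated protein, rose from 5.49 to 10.9, both under either scaling. Banf1, a chromatin-binding envelope protein whose exons overlap another gene over 28.6% of their bases, fell from 1551 to 891 FPKM, and Lmnb1, a lamin, from 10.4 to 6.89.

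**Figure D4:**
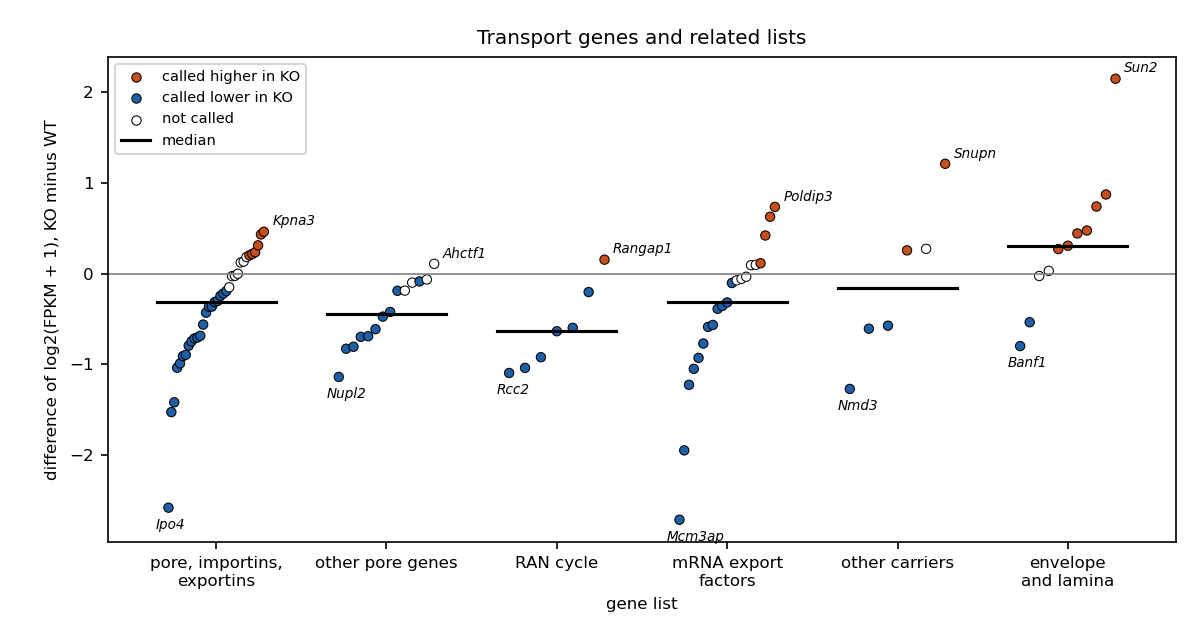
Log2 difference of log2(FPKM + 1), KO minus WT, of each tested gene in the pore, importin and exportin set and in 5 related lists, coloured by call, with the median of each list as a bar. Medians run from -0.64 for the RAN cycle to 0.31 for envelope and lamina.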

How the data were processed

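RNA-seq was done on 6 libraries of leukaemic granulocyte-macrophage progenitors, 3 WT and 3 KO. The authors deposited 1 table of FPKM values for 47643 genes. Per the submitters' processing notes, CASAVA, bcl2fastq, STAR 2.5.3a, DESeq2 1.18.1 and mm10 were used; how reads were counted (tool, annotation, strand) is not given in the sources used here. Genes whose mean over the libraries reached 1 FPKM were tested on log2(FPKM + 1) with limma 3.58.1 in R 4.3.3 (mean-variance trend, genotype as the only term, two-sided, Benjamini-Hochberg over 9108 genes, threshold 0.05). Whole reads were recovered from FPKM, exonic length in GENCODE M21 and the library step within a tolerance of 0.001 for 78.0% of genes above 0, and by a searched length for most others, whose read numbers are minimum estimates (Ipo4 and Xpo4 among those printed). Floors reflect counting error alone, as amplified reads lacking molecular identifiers can be copies of 1 molecule. A floor is 3 reads over the group.

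In each role group the called members with the largest rise and fall were given by library, with those changed at least 2-fold and those whose call a scaling ends; of each related list the 2 largest rises and falls, plus Ran, Rcc1, Cse1l, Nxf1 and Ranbp2. Members and lists were chosen with earlier results of these data known. Promoters are RefSeq's on GRCm38.p6. Replicates of a genotype differed by more than sampling noise (mean chi-square per gene 2.60 to 3.33 between pairs). Alternatives were pseudocounts of 0.1 and 0.5, no minimum or a minimum of 5 FPKM, rescaling to equal sums, quantile and cyclic loess normalization, no trend, a replicate block and leaving out each library.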

Additional observations from a re-analysis of the deposited data

How the results depend on the processing

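Of the 34 tested members, all kept direction and side of the threshold under pseudocounts of 0.1 and 0.5. Under quantile normalization all kept their side of the threshold, and Nup50, level and not called, changed sign (-0.0018 to 0.048; 0.084 under cyclic loess). Cyclic loess ended the call of Nup205 (adjusted p = 0.0726 in limma), and Ipo9 was called without the mean-variance trend (0.0486). Rescaling the libraries to equal sums moved most: Kpna2 (-0.26), Nup205 (-0.020), Nup210 (-0.13) and Ipo9 (-0.24) changed sign. So did Kpna1 (-0.16) and Nup160 (-0.17), not called under either scaling. Calls for Kpna3, Kpna6 and Xpo6 were lost, and Nup50, Nup188, Ipo13 and Tnpo3 became called lower. Higher when rescaled were 2074 genes over all, 0 members, 0 RAN cycle genes, 2 mRNA export factors, 1 other carrier and 3 envelope genes. Of the envelope genes 4 were lower. Rescaled medians were -0.68 for the members, -0.96 for the Y complex, -0.59 for the inner ring, -1.22 for the channel, -0.72 for the cytoplasmic face, -0.52 for the basket, -0.13 for the membrane ring, -0.074 for importin alpha, -0.78 for the importin beta family, -1.03 for exportins, -0.86 for other pore genes, -1.09 for the RAN cycle, -0.61 for mRNA export, -0.59 for other carriers and -0.053 for the envelope.

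A minimum mean of 5 FPKM, which tests fewer genes, left 2072 genes higher and 2383 lower. Of the 17 members it tests 2 were higher and 13 lower. How many genes it tests over all is not given, so no share stands beside these counts. Its medians were -0.69 for the members, -0.77 for the inner ring, -0.19 for the cytoplasmic face, -0.0018 for the basket, -0.61 for the importin beta family, -1.42 for exportins, -0.65 for other pore genes, -0.089 for mRNA export and -0.57 for other carriers. With no minimum, 5769 genes were lower, and medians were 0.0086 for the membrane ring, -0.59 for exportins and -0.019 for other carriers. A pseudocount of 0.1 gave -0.32 for the inner ring, -0.36 for the cytoplasmic face, -0.25 for the basket, 0.28 for the membrane ring, -0.48 for the importin beta family and -1.02 for exportins, and 0.5 gave 0.25 for the membrane ring and -0.84 for exportins. Quantile normalization gave -0.12 for other carriers. The cause was not tested for the scalings.

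Leaving out each library in turn left 5 to 6 members higher and 20 to 21 lower, a median of -0.34 to -0.28, and 3305 to 3380 genes higher and 3507 to 3603 lower. Libraries of the same number do not pair: the correlation of their deviations was -0.0166 to 0.00946. With the number as a replicate block, Nup205 lost its call (adjusted p = 0.0879 in limma), and no other member did. Tested members rest on 319 to 20843 reads over the WT libraries and 171 to 12145 over the KO libraries.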
